A study of Mus musculus with 36 samples.

Results

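Canonical Polycomb repressive complex 1 (PRC1) was followed through 9 of its genes, Cbx2, Cbx6, Cbx7, Cbx8, Pcgf2, Bmi1, Rnf2, Ring1 and Phc1, which were chosen by name as subunits of the complex, with no threshold on their values. The choice was made with earlier results of these data known. The members are 9 of the 51734 gene symbols in the count table, and all 9 were among the 20511 genes tested. The RNA-seq libraries were made from E14 mouse embryonic stem cells (ESC) and from the neural precursors (NPC) that retinoic acid yields from them, in 6 groups of 3. At each stage the groups were wild type (WT), cells with the genotype MLL3/4 dCD (dCD below, a name the labels do not spell out, used in the field for catalytically deficient MLL3 and MLL4) and cells in which MLL2 carries a dTAG degron (MLL2dTAG below). Every library, WT included, is labelled as treated with dTAG-13, the compound that directs a dTAG-tagged protein to degradation, so no comparison isolates the compound. For NPC the labels give 2 µM from day 1 of differentiation and harvest on day 4. For ESC no dose or start of treatment is recorded here, so the stages may also differ in exposure, which was not tested. Each genotype is a cell line of its own, and the labels do not say whether replicates were separate cultures, so p-values measure only the spread between these libraries.

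PRC1 is a chromatin complex that places ubiquitin on histone H2A and compacts the genes it occupies. Its catalytic core pairs a RING protein (RING1 or RNF2) with a PCGF protein. In the canonical form a CBX protein reads the histone mark of Polycomb repressive complex 2 (PRC2), and a PHC protein links complexes to one another. CBX7 is known as the main CBX protein of mouse embryonic stem cells, and CBX2 and CBX8 are known to gain weight as the cells differentiate. MLL2, MLL3 and MLL4 methylate histone H3 at lysine 4, at promoters and enhancers, and are known to act in opposition to Polycomb repression.

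Total counts were 19430860 to 46041277 per library, and all 18 libraries lay nearest to a library of their own group. Because the dTAG acts on the protein and dCD concerns catalysis, transcript counts of the targeted genes do not check the genotypes. Mean Kmt2b (MLL2) was 212 CPM (counts scaled to a fixed library total, as defined with the processing) in WT ESC and 207 CPM in MLL2dTAG ESC. The Y-linked gene Eif2s3y had a mean of 77.6 CPM in WT ESC, 2.85 CPM in MLL2dTAG ESC and 0.118 CPM in MLL2dTAG NPC, and the part of this difference between the lines in the results was not tested. The 8 pluripotency markers summed to 2770 to 2911 CPM in WT ESC and 134 CPM in WT NPC. In NPC of the edited lines they summed to 158 to 170 CPM (dCD) and 312 to 319 CPM (MLL2dTAG). Most of the WT NPC sum was Tbx3, with a mean of 90.9 CPM there, 53.3 CPM in WT ESC and 147 CPM in MLL2dTAG NPC. Tbx3 rose in WT differentiation and the other 7 fell. All 8 were higher in MLL2dTAG NPC than in WT NPC, with a median log2 difference of 1.87. The 8 neural markers summed to 125 to 132 CPM in WT ESC, 281 to 287 CPM in WT NPC, 512 to 561 CPM in dCD NPC and 342 to 356 CPM in MLL2dTAG NPC. In WT differentiation 7 of them rose and 1 did not pass the test. Against WT NPC, 6 were higher in dCD NPC and 2 did not pass. In MLL2dTAG NPC 5 were higher, 2 were lower and 1 did not pass. Pax6 had a mean of 38.9 CPM in WT NPC and 26.4 CPM in MLL2dTAG NPC. Markers of other cell types were present too: 8 endoderm markers summed to 435 to 449 CPM in WT NPC, 310 to 317 CPM in dCD NPC and 841 to 865 CPM in MLL2dTAG NPC. The 8 endothelial and blood markers summed to 61.9 to 64.4 CPM in WT NPC, 44.6 to 48.1 CPM in dCD NPC and 217 to 223 CPM in MLL2dTAG NPC, where Kdr alone had a mean of 209 CPM against 59.5 CPM in WT. Of these 8, 5 were tested and 4 were higher in MLL2dTAG NPC than in WT NPC. Ptprc was at 0 in all 3 NPC groups and Hba-x in NPC of WT and dCD, and the part of these markers in the MLL2dTAG results was not tested. These are bulk samples, in which fewer cells of a type and less RNA per cell cannot be told apart.

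Promoter sequence is shown for Bmi1 and Cbx8, which were higher in NPC than in ESC and higher in both edited lines than in WT at both stages. The sequences are those of RefSeq on GRCm38.p6, trimmed to the bases upstream of the start that overlap no annotated exon, 5′ to 3′ on the gene's strand, with CG dinucleotides in capitals. They are chr2:18676768-18677017 on the + strand for Bmi1 and chr11:119040970-119041163 on the - strand for Cbx8.
Bmi1: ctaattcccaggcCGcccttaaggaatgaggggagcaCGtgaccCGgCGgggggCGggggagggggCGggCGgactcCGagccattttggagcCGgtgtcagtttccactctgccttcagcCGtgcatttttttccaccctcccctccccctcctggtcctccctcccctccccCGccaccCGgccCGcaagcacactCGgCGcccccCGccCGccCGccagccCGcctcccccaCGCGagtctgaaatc
Cbx8: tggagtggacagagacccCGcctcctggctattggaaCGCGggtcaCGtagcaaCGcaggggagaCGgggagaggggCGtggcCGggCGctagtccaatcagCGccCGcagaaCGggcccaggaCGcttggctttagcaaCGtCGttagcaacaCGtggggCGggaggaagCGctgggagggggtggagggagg
Over the full 250 bases before the RefSeq start, Bmi1 held 21 CG dinucleotides and Cbx8 22. The Cbx8 window overlaps an annotated exon by 56 bases, and the 194 bases shown for it hold 18. The median over 32851 RefSeq promoters was 6, and 16.3% and 14.8% of them held at least as many as Bmi1 and Cbx8. RefSeq gave a window for 8 of the 9 members. Ring1 held 30 and Rnf2 20. The other 4 windows, of Cbx7 with 23, Cbx6 with 20, Phc1 with 8 and Pcgf2 with 5, lie inside the longer gene of the GENCODE annotation, so whether they are the promoter in use was not tested. The octamer ATGCAAAT, searched on both strands, was in none of these 8 windows and in 1.60% of all promoters. AGGTCA, also searched on both strands, was in the Pcgf2 window alone among the 8 and in 14.0% of all promoters.

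In WT cells, 8 of the 9 members changed between ESC and NPC (edgeR quasi-likelihood test, Benjamini-Hochberg adjusted p under 0.05), 5 higher and 3 lower in NPC. Over all genes tested, 79.5% changed, 39.1% higher and 40.4% lower, so the count of members called does not set them apart. Their median log2 change was 0.30, against -0.04 over all genes tested. Cbx8, Phc1 and Bmi1 had the largest changes, and Cbx6 and Pcgf2 the smallest.

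Cbx8, a CBX subunit barely transcribed in ESC, rose most. Its level was 1.28, 0.796 and 0.714 CPM in the 3 WT ESC libraries, from 21 to 24 counts each, and 11.1, 10.2 and 11.7 CPM in WT NPC. All NPC libraries lay far above all ESC libraries. The log2 change was 3.63 (SE 0.16, adjusted p = 4.62e-21), a 12.4-fold rise. Cbx2, whose protein compacts chromatin through a charged region, was at 34.9, 36.2 and 33.1 CPM in WT ESC and at 126, 130, and 128 CPM in WT NPC. The groups did not overlap, and the log2 change was 1.88 (SE 0.04, adjusted p = 7.96e-30).

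Cbx7 moved the other way. WT ESC had 347, 360.5 and 331 CPM, and WT NPC 158, 169 and 164 CPM. Every NPC library was lower than every ESC library, with a log2 change of -1.08 (SE 0.04, adjusted p = 3.44e-25). Cbx6, a further CBX gene, was at 80.7, 87.2 and 82.4 CPM in WT ESC and 79.2, 80.0 and 77.6 CPM in WT NPC, with a log2 change of -0.08 (SE 0.04, adjusted p = 0.0752). That difference did not pass the test, and its sign changes with the scaling.

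Set per kb of exon, Cbx7 made up 76.6% ± 0.202 (SD, n = 3) of the summed level of the 4 CBX members (Cbx2, Cbx6, Cbx7 and Cbx8) in WT ESC and 38.4% ± 0.608 in WT NPC. The share of Cbx2 went from 11.7% ± 0.0552 to 45.7% ± 0.209 and that of Cbx8 from 0.363% ± 0.118 to 4.56% ± 0.366. In WT NPC, then, the level per kb of Cbx2 was 1.19 times that of Cbx7, against 0.153 times in WT ESC. Cbx6 held 11.3% in both. The order per kb thus changed at the top, where Cbx2 passed Cbx7, while Cbx8 held the smallest share of the 4 in both. That crossing rests on the exon lengths used, 4257 bases for Cbx2 and 6487 for Cbx7. Before division by length, the ratio of Cbx2 to Cbx7 counts was 0.766 to 0.797 over the WT NPC libraries, so Cbx7 stayed above Cbx2.

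**Figure D1:**
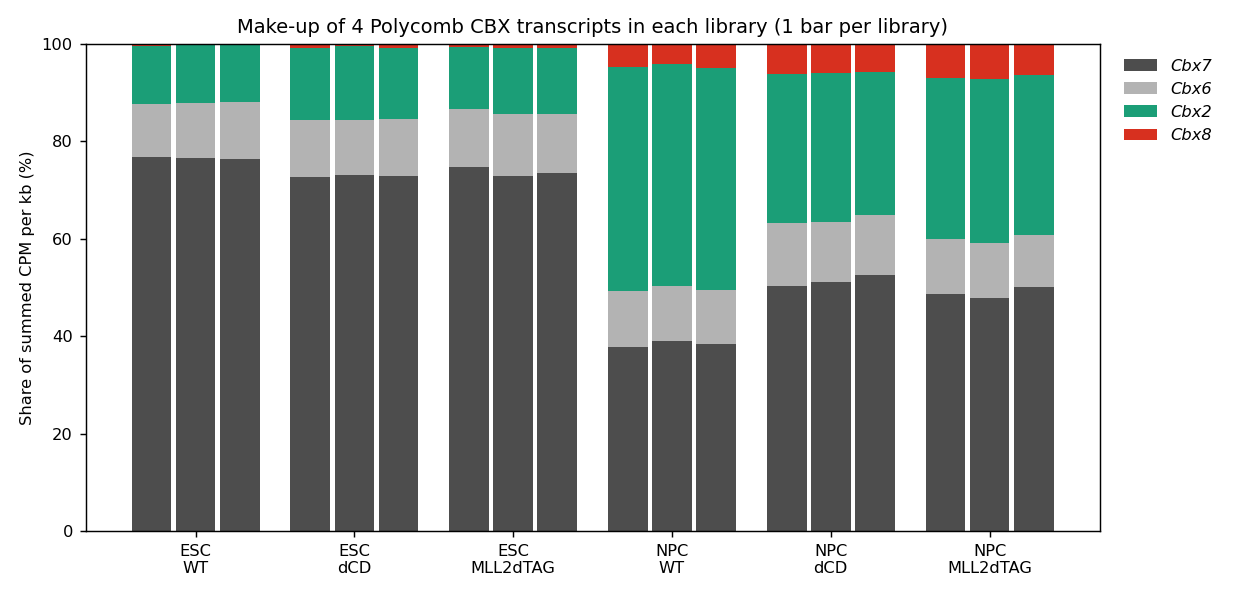
Share of each of the 4 CBX members in their summed level (CPM per kb of exon, percent, vertical axis), 1 bar per library, 3 libraries for each of the 6 groups. Cbx7 fills 76.6% of the WT ESC bars on average and 38.4% of the WT NPC bars, and the Cbx7 part is larger in NPC of both edited lines than in WT NPC.

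Bmi1, one of the PCGF subunits of canonical PRC1, was at 6.71, 9.92 and 7.48 CPM in WT ESC and 55.4, 52.4 and 52.1 CPM in WT NPC. It rose with no overlap, by 2.70 on the log2 scale (SE 0.08, adjusted p = 1.93e-26). Pcgf2, its close relative, was at 82.7, 88.8 and 83.7 CPM in WT ESC and 76.0, 77.3 and 77.8 CPM in WT NPC. It fell by 0.14 on the log2 scale (SE 0.04, adjusted p = 0.00405), and that call is lost when library totals are the only scaling (log2 change -0.06), without the filter on low counts (-0.04) or with only the groups compared (-0.09). Per kb of exon, the level of Bmi1 was 0.0835 times that of Pcgf2 in WT ESC and 0.614 times in WT NPC.

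Both RING genes rose. Ring1 was at 8.73, 9.45 and 8.29 CPM in WT ESC and 26.2, 25.0 and 26.4 CPM in WT NPC, a log2 change of 1.55 (SE 0.08, adjusted p = 1.63e-18). Rnf2, which had the higher level of both genes in every group, was at 168, 151 and 155 CPM in WT ESC and 194, 193 and 195 CPM in WT NPC. Its rise was 0.30 on the log2 scale (SE 0.04, adjusted p = 2.53e-09), and 0.17 when GC content and length are corrected for. The level of Ring1 per kb was 0.0713 times that of Rnf2 in WT ESC and 0.170 times in WT NPC.

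Phc1, a polyhomeotic subunit that joins PRC1 complexes, fell most. It was at 739.9, 780.3 and 718 CPM in WT ESC and 106, 108 and 106 CPM in WT NPC. Every NPC library was below every ESC library, and the log2 change was -2.81 (SE 0.04, adjusted p = 8.21e-38). In WT ESC, Phc1 was the highest member per kb of exon at 141 CPM per kb, followed by Cbx7 at 53.4, and in WT NPC it stood at 20.1, below Rnf2 at 47.0, Cbx2 at 30.0, Cbx7 at 25.3 and Pcgf2 at 21.9.

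**Figure D2:**
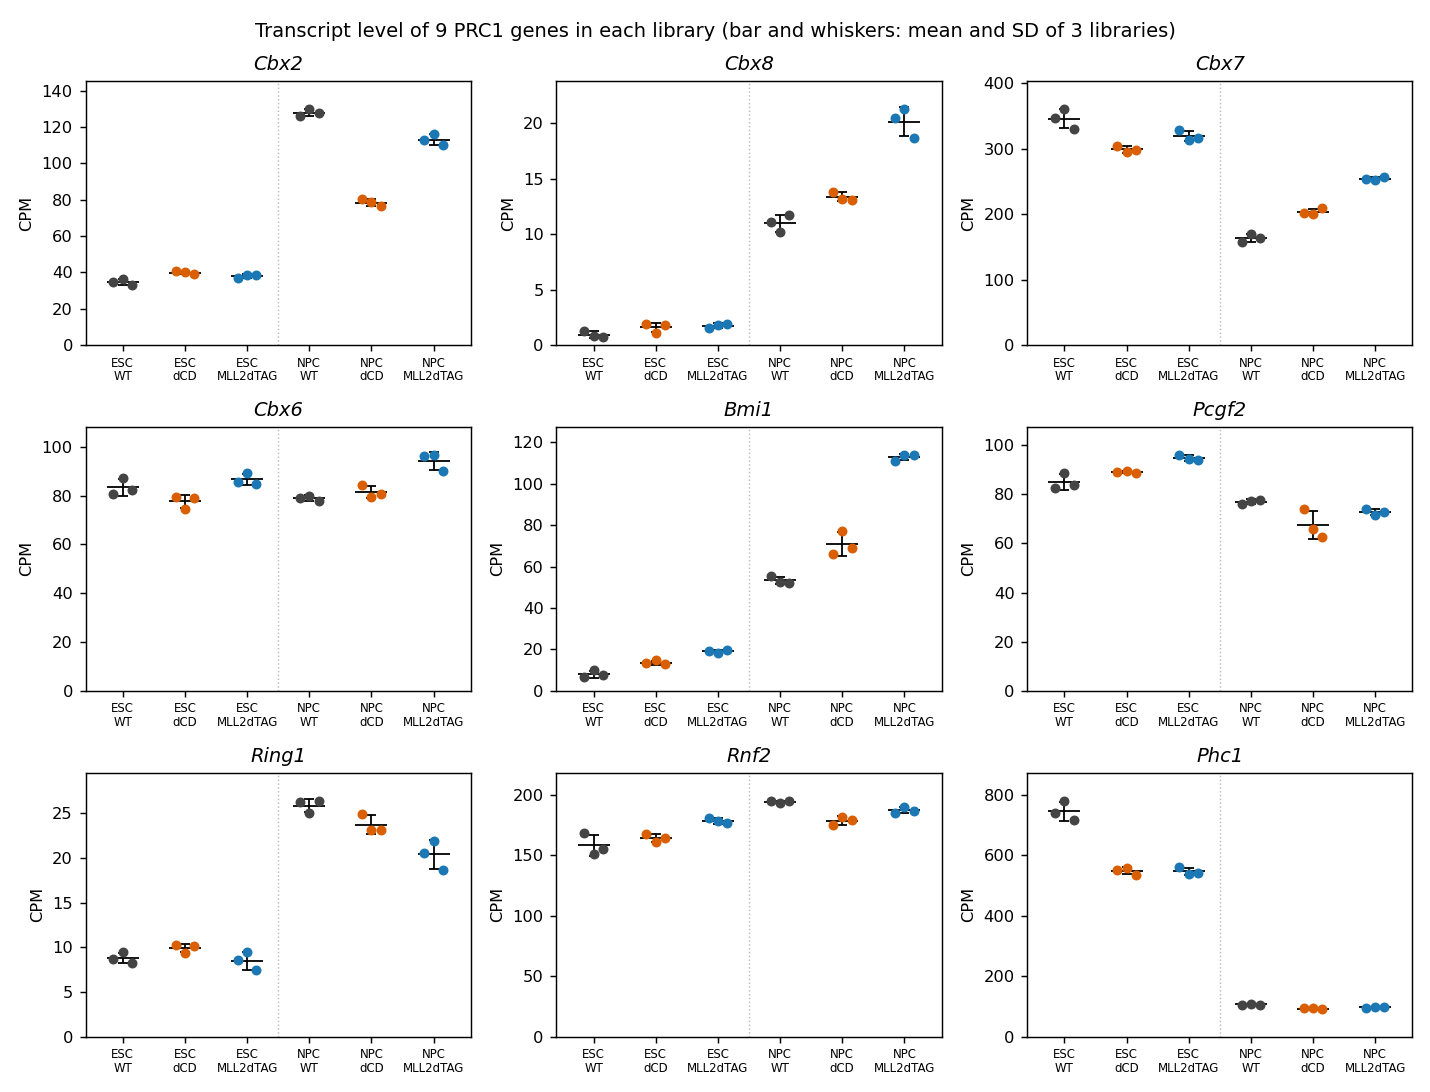
Level of each of the 9 members (CPM, linear axis from 0) in the 18 libraries; points are libraries, and the bar and whiskers are the mean and SD of 3. Phc1 and Cbx7 sit higher in ESC, Cbx2, Cbx8, Bmi1 and Ring1 sit higher in NPC, and Cbx6, Pcgf2 and Rnf2 differ little between stages.

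In each edited line 8 of 9 members changed between the stages, 5 higher and 3 lower in NPC. Of all genes, 77.6% changed in dCD (38.7% higher, 39.0% lower) and 78.2% in MLL2dTAG (39.9% higher, 38.3% lower). The sizes differed for some members. Cbx2 rose by 1.88 in WT, 0.97 in dCD and 1.58 in MLL2dTAG on the log2 scale (SE 0.04 in each). Cbx7 fell by 1.08 in WT, 0.55 in dCD and 0.33 in MLL2dTAG. Corrected for GC content and length, Cbx7 fell by 0.89 in dCD and by 0.51 in MLL2dTAG. The WT fall of 1.08 is without this correction, so it is not the value to set beside them. Bmi1 rose by 2.70, 2.38 and 2.57, Cbx8 by 3.63, 3.07 and 3.52, in WT, dCD and MLL2dTAG, where Phc1 had -2.81, -2.57 and -2.505. Cbx6 was called higher in MLL2dTAG NPC, by 0.12, a call that turns to -0.33 under the same correction. Rnf2 rose in dCD by 0.12 (adjusted p = 0.00273), which drops to 0.03 and is not called with upper quartile factors, and its change of 0.07 in MLL2dTAG did not pass the test.

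**Figure D3:**
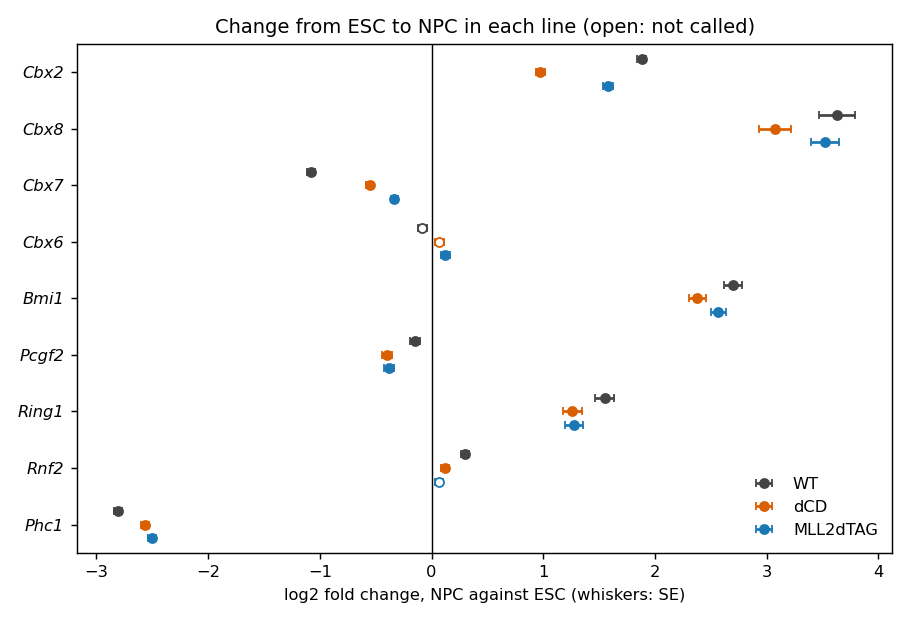
Log2 fold change from ESC to NPC of the 9 members in WT, dCD and MLL2dTAG (horizontal axis; whiskers SE; open points not called). Cbx8 is farthest right in all 3 lines and Phc1 farthest left, and the points of Cbx2 and Cbx7 are closer to 0 in the edited lines than in WT.

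In ESC, 6 of the 9 members differed between dCD and WT, 3 higher and 3 lower, where 48.3% of all genes differed (25.7% higher, 22.6% lower). Their median log2 difference was 0.06, against 0.02 over all genes. In MLL2dTAG ESC, 7 differed, 5 higher and 2 lower, where 56.9% of all genes differed (28.7% higher, 28.2% lower), with a median of 0.12 against -0.00106. Both comparisons use the same WT libraries. Bmi1 was at 13.4, 14.7 and 12.8 CPM in dCD ESC and 19.5, 18.2 and 19.5 CPM in MLL2dTAG ESC, all above the WT ESC range given above. The log2 difference was 0.73 (SE 0.10, adjusted p = 1.02e-07) in dCD and 1.22 (SE 0.09, adjusted p = 5.17e-14) in MLL2dTAG.

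Cbx8 was higher in both lines at very low counts. It was at 1.88, 1.08 and 1.79 CPM in dCD ESC, overlapping WT, and at 1.502, 1.83 and 1.88 CPM in MLL2dTAG ESC, above WT. The log2 difference was 0.84 (SE 0.24, adjusted p = 0.00363) and 0.99 (SE 0.22, adjusted p = 0.000259). Phc1 was lower in both, at 553, 558 and 536 CPM in dCD ESC and 560.0, 540 and 542 CPM in MLL2dTAG ESC. All 6 libraries lay below the 3 WT libraries, and the log2 difference was -0.44 and -0.45 (SE 0.03 in each, adjusted p = 1.09e-13 and 2.75e-14).

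Cbx7 was lower in dCD ESC, at 305, 295 and 298 CPM, by 0.21 on the log2 scale (SE 0.03, adjusted p = 4.38e-06), or 0.11 corrected for GC content and length. In MLL2dTAG ESC it was at 329, 314 and 317 CPM, lower by 0.11 (SE 0.03, adjusted p = 0.00483), and that call is lost without the filter on low counts (-0.06). Cbx2 was higher in dCD ESC, at 40.7, 39.9 and 39.0 CPM, by 0.20 (SE 0.05, adjusted p = 0.000714). Its rise of 0.12 in MLL2dTAG ESC is lost with upper quartile factors (0.07), with only the groups compared (0.12), or without WT ESC replicate 3 (0.09), MLL2dTAG ESC replicate 2 or MLL2dTAG ESC replicate 3 (0.11 each). The Cbx6 difference in dCD ESC, -0.11 (adjusted p = 0.0436), is lost in 10 of 27 alternative settings. Pcgf2 and Rnf2 were higher in MLL2dTAG ESC, by 0.15 and 0.18; the call for Pcgf2 is lost with upper quartile factors (0.10), and the difference for Rnf2 is 0.27 corrected for GC content and length. Ring1 differed by 0.16 in dCD ESC and -0.07 in MLL2dTAG ESC, and neither passed the test.

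In NPC, 7 of 9 members differed between dCD and WT, 3 higher and 4 lower, against 53.5% of all genes (26.7% higher, 26.8% lower), with a median of -0.12 against -0.02. In MLL2dTAG NPC, 7 differed, 4 higher and 3 lower, against 61.7% of all genes (33.3% higher, 28.4% lower), with a median of -0.05 against 0.03. These comparisons too share their WT libraries. Bmi1, Cbx7 and Cbx8 were higher in both lines. Cbx2 and Phc1 were lower in both.

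Bmi1 was at 66.2, 77.1 and 69.2 CPM in dCD NPC and at 111, 114 and 114 CPM in MLL2dTAG NPC, with no overlap among the 3 NPC groups. The log2 difference from WT was 0.41 (SE 0.06, adjusted p = 2.83e-07) and 1.08 (SE 0.06, adjusted p = 4.78e-18). Its level per kb was 0.938 times that of Pcgf2 in dCD NPC and 1.38 times in MLL2dTAG NPC. The ratio was 0.795 to 1.04 over the dCD NPC libraries, and 1.33 to 1.41 over those of MLL2dTAG NPC. Pcgf2 itself was at 73.8, 65.8 and 62.8 CPM in dCD NPC, lower than WT by 0.19 (SE 0.04, adjusted p = 0.00038), and at 73.9, 71.5 and 72.8 CPM in MLL2dTAG NPC, where -0.08 did not pass the test.

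Cbx8 reached 13.8, 13.1 and 13.1 CPM in dCD NPC and 20.5, 21.3 and 18.7 CPM in MLL2dTAG NPC. In MLL2dTAG the difference was 0.87 (SE 0.09, adjusted p = 5.04e-10). The difference of 0.28 in dCD (SE 0.10, adjusted p = 0.0159) rests on single libraries: without WT NPC replicate 2 it is 0.23 (adjusted p = 0.0913) and without dCD NPC replicate 1 it is 0.26 (adjusted p = 0.0552). Cbx7 was at 201, 201 and 209 CPM in dCD NPC and at 254, 252 and 256 CPM in MLL2dTAG NPC, all above WT NPC. It was higher by 0.31 (SE 0.04, adjusted p = 1.49e-09) and 0.63 (SE 0.04, adjusted p = 1.12e-17).

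Cbx2 was lower in dCD NPC, at 80.1, 78.8 and 76.2 CPM, by 0.71 on the log2 scale (SE 0.04, adjusted p = 2.02e-17). In MLL2dTAG NPC it was at 113, 116 and 109.9 CPM and lower by 0.18 (SE 0.04, adjusted p = 0.000123), a call lost on correction for GC content and length (-0.07), and it is -0.27 with upper quartile factors. Cbx7 therefore held 51.4% of the level of the 4 CBX members per kb in dCD NPC and 48.9% in MLL2dTAG NPC, and Cbx2 30.1% and 33.1%. In both lines Cbx7 was above Cbx2 per kb, with a ratio of Cbx2 to Cbx7 of 0.586 and 0.678, and in WT NPC it was below, at 1.19. By counts not divided by length, Cbx7 was above Cbx2 in WT NPC too, at a ratio of 0.766 to 0.797.

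Phc1 was lower by 0.20 in dCD NPC (SE 0.04, adjusted p = 6.8e-06) and by 0.15 in MLL2dTAG NPC (SE 0.03, adjusted p = 0.000476), the latter -0.24 with upper quartile factors and -0.23 with library totals. Ring1 was lower in MLL2dTAG NPC, at 20.6, 21.9 and 18.7 CPM, by 0.34 (SE 0.07, adjusted p = 9.86e-05). Cbx6 was higher there, at 96.4, 96.7 and 90.0 CPM, by 0.26 (SE 0.04, adjusted p = 1.35e-06), or 0.17 with upper quartile factors. Rnf2 was lower by 0.12 in dCD NPC (SE 0.04, adjusted p = 0.0041).

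**Figure D4:**
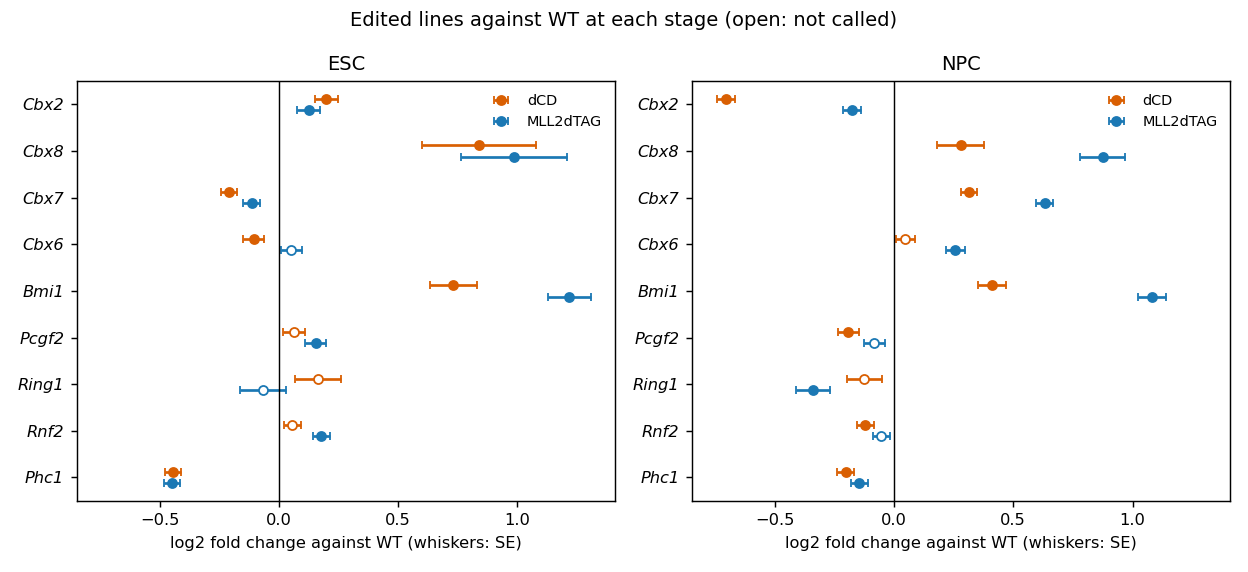
Log2 fold change against WT of the 9 members in dCD and MLL2dTAG cells, in ESC (left) and NPC (right); whiskers SE, open points not called. Bmi1 and Cbx8 are right of 0 in all 4 comparisons, Phc1 left of 0 in all 4, and Cbx2 and Cbx7 change sides between stages.

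Whether a line's difference from WT depended on the stage was tested by the interaction of line and stage. In dCD, 7 of 9 members passed, 3 higher and 4 lower, against 42.9% of all genes (20.0% higher, 22.9% lower), and in MLL2dTAG 6 passed, 3 higher and 3 lower, against 49.0% (26.4% higher, 22.6% lower). Cbx2 had an interaction of -0.90 in dCD (SE 0.06, adjusted p = 1.99e-14) and -0.30 in MLL2dTAG (SE 0.06, adjusted p = 7.07e-05). Cbx7 had 0.52 (SE 0.05, adjusted p = 6.23e-11) and 0.75 (SE 0.05, adjusted p = 3.8e-15). For Cbx2 in MLL2dTAG the value is -0.19 corrected for GC content and length. Bmi1 in dCD, at -0.32, is lost in 5 of 27 settings, and Cbx6 in dCD, at 0.15, in 9.

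The summed level of the 8 mesenchymal markers was higher in the edited lines than in WT at both stages. It was 465 to 579 CPM in WT ESC, 742 to 830.2 CPM in dCD ESC, 842 to 898 CPM in MLL2dTAG ESC, 704 to 722 CPM in WT NPC, 906 to 993 CPM in dCD NPC and 1061 to 1073 CPM in MLL2dTAG NPC, and none of the 8 was at 0 in a whole group. Between stages, the summed level of both edited lines in ESC was above that of WT NPC, while Bmi1 and Cbx8 were far lower there than in WT NPC. The markers were split in this. Col1a1, Col1a2 and Prrx1 had higher means in ESC of both edited lines than in WT NPC. Col3a1, Twist1, Pdgfra, Dcn and Lum had lower means there, as Bmi1 and Cbx8 did. From ESC to NPC, 5 of the 8 rose and 3 fell in each line. Of the 8, all 8 were higher in both edited lines in ESC, 7 were higher in dCD NPC, and in MLL2dTAG NPC 5 were higher and 3 lower. The collagen gene Col3a1 rose from a mean of 295 to 716 CPM in MLL2dTAG NPC while Col1a2 fell from 153 to 21.3 CPM. The part of these markers in the Bmi1 and Cbx8 results was not tested.

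Among 11796 tested genes that averaged at least 5 CPM, the gene whose log2 level followed Bmi1 most closely over the 18 libraries was Slc4a2 (Pearson r = 0.997), then Col3a1 (r = 0.995). For Cbx8 it was Dcn, a mesenchymal marker (r = 0.992), for Cbx7 Max (r = 0.984), for Phc1 the germline and stem cell gene Dppa3 (r = 0.998) and for Cbx2 Zfp260 (r = 0.996). The 18 points share 2 stages and 3 lines, so high values follow from the stage for many genes. With each stage's mean taken off, Slc4a2 still led for Bmi1 (r = 0.980) and Dcn for Cbx8 (r = 0.933), but the first place passed to Zfp326 for Cbx7 (r = 0.975), Usp11 for Phc1 (r = 0.976) and Hirip3 for Cbx2 (r = 0.967), and Col3a1 was no longer among the first 3 for Bmi1.

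Cbx2 and Cbx8 lie side by side on mouse chromosome 11 (GRCm38, GENCODE M21), Cbx2 at 119022962 to 119031270 on the + strand and Cbx8 at 119036305 to 119040969 on the - strand, 5.027 kb apart. Both rose from ESC to NPC in all 3 lines, while in NPC of both edited lines Cbx2 was lower than WT and Cbx8 higher. Of these NPC calls, Cbx2 in MLL2dTAG and Cbx8 in dCD are lost in some settings, as given above. Commd3, which lies 0.786 kb from Bmi1, was called in the same direction as Bmi1 in all 7 of the stage and line comparisons, with 1.62 in WT differentiation and 0.60 in MLL2dTAG ESC. Exons of Cbx7 overlap Apobec3 and those of Rnf2 overlap Trmt1l on the opposite strand, and Cbx6 shares exons with Npcd on its own strand. Apobec3 fell by 4.06 on the log2 scale in WT differentiation, from a mean of 181 to 10.9 CPM. Against WT NPC it was at 0.74 in dCD and -0.83 in MLL2dTAG, where Cbx7 was higher in both. Trmt1l did not pass the test in WT differentiation (0.01), and Npcd had no counts in any group. Whether the counting used strand is not given in the sources used here, so reads of such pairs may not be told apart.

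Of 4 other canonical PRC1 genes (Phc2, Phc3, Scmh1, Scml2), 4 rose in WT from ESC to NPC, with a median log2 change of 0.996, where 39.1% of all genes rose and 40.4% fell, with a median of -0.04; the same shares stand beside the WT counts of the lists that follow. Phc2, a relative of Phc1, rose by 2.33 (SE 0.04) as Phc1 fell by 2.81. Scml2 was lower in MLL2dTAG cells, with a mean of 8.55 CPM in WT ESC against 0.757 CPM in MLL2dTAG ESC, and 10.9 CPM in WT NPC against 0.116 CPM in MLL2dTAG NPC, near the floor of 3 counts. Variant PRC1 complexes lack the CBX proteins of the canonical form. Of 20 measured genes of these variant complexes, 9 rose and 10 fell in WT, with a list median of -0.24. Among them were Yaf2 (2.13), Bcorl1 (1.69), Pcgf5 (-1.63) and L3mbtl2 (-2.15). In dCD NPC 11 of the 20 were higher and 5 lower than WT, with Auts2 at 1.09, where 26.7% of all genes were higher and 26.8% lower. In MLL2dTAG NPC 10 were higher and 5 lower, where 33.3% of all genes were higher and 28.4% lower. The list medians were 0.10 and 0.09, against -0.02 and 0.03 over all genes.

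Of 12 measured PRC2 genes, which place the mark that CBX proteins read, 1 rose and 10 fell in WT, where 39.1% of all genes rose and 40.4% fell. The list median was -1.06, against -0.04 over all genes. Epop fell by 2.27 and Phf19 by 1.79 on the log2 scale. Ezh1 was lower than WT in both lines at both stages, with log2 differences of -1.21 in ESC and -0.96 in NPC of dCD, and -0.91 in ESC and -0.17 in NPC of MLL2dTAG. Among 9 genes of the H2A deubiquitinases and their partners, which remove the mark PRC1 places, 5 rose and 3 fell in WT, with a median of 0.16, and Asxl3 rose by 4.54. Asxl3 was lower than WT in NPC of both lines, by 0.72 in dCD and 1.32 in MLL2dTAG. The 3 HP1 chromobox genes carry the same type of domain but are not among the CBX genes of canonical PRC1. Of these, 1 fell in WT and 2 did not pass the test, with a median of -0.05.

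**Figure D5:**
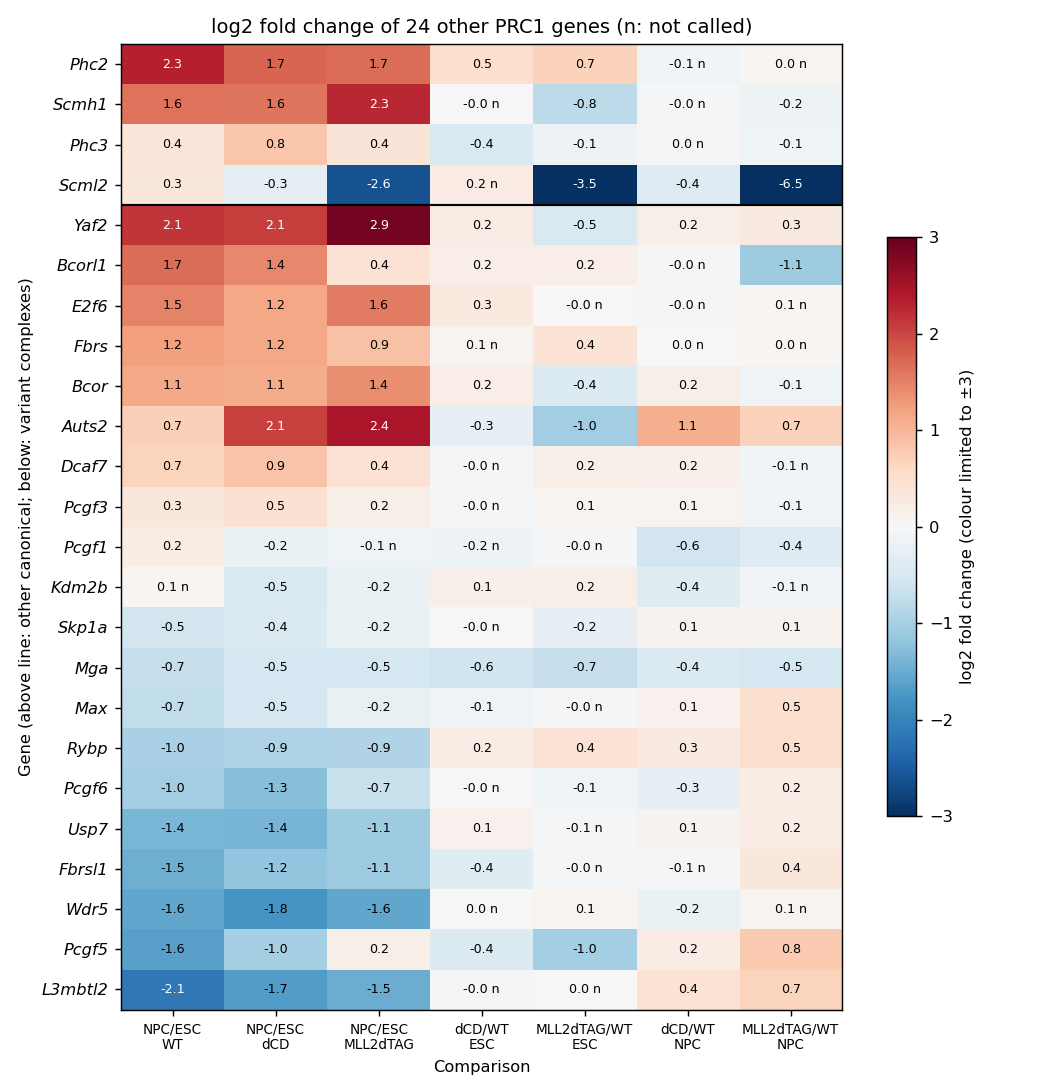
Log2 fold change of 24 other PRC1 genes (rows; 4 canonical above the line, 20 of variant complexes below) in 7 comparisons (columns); colour is limited to ±3 and n marks values not called. Phc2 is highest in the first column, and Scml2 is lowest in both MLL2dTAG against WT columns.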

How the data were processed

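The values are whole read counts for each gene symbol, deposited by the authors without normalization. HTSeq is named in the submitters' processing notes, and the TruSeq Stranded mRNA kit in the labels' protocols. Aligner, build and strand setting are not given in the sources used here. Of 36 samples, 18 were used; 6 columns with repeated names in the same table were not used. Low counts (1 to 10) were even in 60.8% to 66.5% of cases, so counts were also tested halved.

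Counts were fitted with edgeR 4.0.16 (R 4.3.3) on all 18 libraries: filterByExpr by group, TMM factors (0.967 to 1.05), 1 mean per group, quasi-likelihood F tests, two-sided, Benjamini-Hochberg over 20511 genes, called at adjusted p under 0.05. CPM uses TMM-scaled totals; 3 counts are 0.0652 to 0.154 CPM. Levels are compared between genes per kb of GENCODE M21 exon, except where ratios of counts are named for Cbx2 and Cbx7. Alternatives were 9 other settings, DESeq2 1.42.0 among them, and leaving out each of 18 libraries. The fit was checked on simulated data for WT differentiation alone, with the same spread for all genes. That check did not cover changes at low counts or the interaction tests. All 9 members were named in every comparison; from each fixed list, the 2 highest and 2 lowest called genes averaging at least 5 CPM could be named. Of the listed genes, 1 is not reported here. Members and lists were chosen with earlier results of these data known.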

Additional observations from a re-analysis of the deposited data

Results flagged for a closer look

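For 13 results the difference of an edited line from WT was not the same in NPC as in ESC by the interaction test (edgeR, adjusted p under 0.05). They cover 7 of 9 members in dCD, where 42.9% of all genes passed, and 6 of 9 in MLL2dTAG, where 49.0% passed. Each value is the log2 difference in NPC minus that in ESC. In dCD cells, Cbx2 had -0.90, Cbx7 0.52, Bmi1 -0.32, Pcgf2 -0.26, Phc1 0.24, Rnf2 -0.18 and Cbx6 0.15. In MLL2dTAG cells, Cbx7 had 0.75, Phc1 0.30, Cbx2 -0.30, Pcgf2 -0.24, Rnf2 -0.23 and Cbx6 0.20. Cbx2 was higher than WT in ESC and lower in NPC in both lines, and Cbx7 was lower in ESC and higher in NPC in both. For MLL2dTAG some of these calls depend on the setting. The higher Cbx2 of its ESC (0.12) is lost with upper quartile factors (0.07), among others. The lower Cbx2 of its NPC (-0.18) is lost once GC and length are corrected for (-0.07). The lower Cbx7 of its ESC (-0.11) is lost when low counts are not filtered (-0.06). Phc1 was lower at both stages, by less in NPC. The Rnf2 value in dCD is -0.06 and not called with offsets for GC content and length, and the Cbx6 value in MLL2dTAG is lost with library totals (0.12) and without the filter on low counts (0.11).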

How the results depend on the processing

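Of 81 results (9 members in 9 comparisons), 64 were called, of which 51 were called with the same sign in all 27 settings, 12 were lost in at least 1 and 1 reversed. Of the 17 not called, 11 were called in at least 1 setting. The cause was not tested for any of these. Signs turned for Cbx6 in WT differentiation with library totals (0.0013) and without the filter (0.0199), in dCD differentiation with upper quartile factors (-0.0198) and with GC and length offsets (-0.52), in MLL2dTAG differentiation with those offsets (-0.33), and in MLL2dTAG ESC with upper quartile factors (-0.00062). For Rnf2 they turned in MLL2dTAG differentiation with upper quartile factors (-0.0524) and the offsets (-0.0239), and with the offsets in dCD ESC (-0.0794) and MLL2dTAG NPC (0.0731). Ring1 in MLL2dTAG ESC turned without MLL2dTAG ESC replicate 3 (range over left-out libraries -0.153 to 0.0239), and the Cbx8 interaction in MLL2dTAG without WT ESC replicate 3 (range -0.338 to 0.0438). Upper quartile factors moved the median of all genes by -0.11 in MLL2dTAG differentiation.

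Same-numbered libraries did not deviate together (r from -0.028 to 0.032), and 2 of 18 libraries correlated best with their own number. No pairing by number was thus detected, which cannot show whether same-numbered libraries were handled together. With the replicate number as a block, 16170 genes were called in WT differentiation, against 16302 without it, and no member's call changed. Depth limits Cbx8 in ESC, which rests on 21 to 72 counts per library.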
